A study of Mus musculus with 116 samples.

Results

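Translation initiation and elongation factors were described here as 63 genes of the 24028 gene symbols that all 4 deposited expression tables hold. They are the symbols that begin with Eif and a digit of 1 to 6, with Eef1 or with Eef2, apart from the Y-linked copy Eif2s3y and the Eif2c genes, which code for Argonaute proteins. Their marker genes were present: Eif4e1b, Eif1 and Eif4e were each at 28.4 FPKM or more in all 5 libraries of oocytes and embryos up to the 2-cell stage. The genes fell into 16 sets by complex or role, the largest of which was eIF3 with 14 genes.

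Translation begins when eIF4E binds the mRNA cap and, with the scaffold eIF4G and the helicase eIF4A, recruits a small ribosomal subunit that already carries eIF1, eIF1A, eIF3 and eIF2 with the initiator tRNA. The eIF4E-binding proteins compete with eIF4G for eIF4E, and kinases that phosphorylate eIF2 keep its exchange factor eIF2B from recharging it. eEF1 then delivers aminoacyl-tRNA and eEF2 moves the ribosome along the mRNA. Oocytes store many mRNAs in a silent form and use forms of several of these factors, and of the poly(A)-binding proteins that act with them, which somatic cells largely lack.

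The series examined RNA polymerase II and genome activation in mouse. The RNA libraries were 1 of MII oocytes (13 h after hCG, the hormone given to trigger ovulation), 1 of PN5 zygotes, whose pronuclei are fully grown (30 h), and 1 of embryos early in the 2-cell stage (36 h). Late 2-cell embryos gave 1 mTBE and 1 control library, and inner cell mass (ICM, 98 h) gave 2. For the mTBE library, zygotes taken 23 h after hCG were kept for 14 h in KSOM medium with 60 uM DRB, a drug that blocks transcript elongation by RNA polymerase II, then released and cultured for 12 h. The control zygotes were kept in 0.1% DMSO over the same times. All were wild-type, from C57BL/6N females aged 8 weeks, and the embryos were sired by PWK males. The first 5 libraries were total RNA depleted of ribosomal RNA from about 100 oocytes or embryos each, and those of ICM used Smart-seq2, a method for polyadenylated RNA. The labels do not say that the ICM libraries came from separate animals. With 1 library in each other group no p-value could be calculated, and no difference between groups has a replicate check.

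Levels are FPKM, fragments scaled by transcript length and library size, so they can be set beside each other between genes. The tables were normalized separately: PN5 stood in 1 table with both late 2-cell libraries, the ICM pair in another, and MII and early 2-cell alone, so levels read across them carry that limit. Single genes can differ by table too: 54 genes had at least 10 FPKM in MII and early 2-cell but under 1 FPKM in PN5 and both late 2-cell libraries. Of these 0 were members. The members made up 1.38% of the summed FPKM in MII, 1.17% in PN5, 1.18% in early 2-cell, 0.880% in mTBE, 0.913% in control, and 2.50% and 2.23% in the ICM libraries. Between 56 and 59 of the 63 members reached 1 FPKM in each library. In such bulk samples, fewer cells of a type and less RNA per cell cannot be told apart. Of 8 oocyte marker genes 1 and 5 were at 1 FPKM or more in the ICM libraries, against 8 of 8 in each of the 5 total RNA libraries. All 7 ICM markers were at 1 FPKM or more in both ICM libraries, but so were 7 in mTBE, 6 in control and 3 in each earlier library. Their summed level was 553 and 432 FPKM in ICM, against 327 FPKM in mTBE, 284 FPKM in control and 153 to 260.3 FPKM in the earlier libraries.

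**Figure D1:**
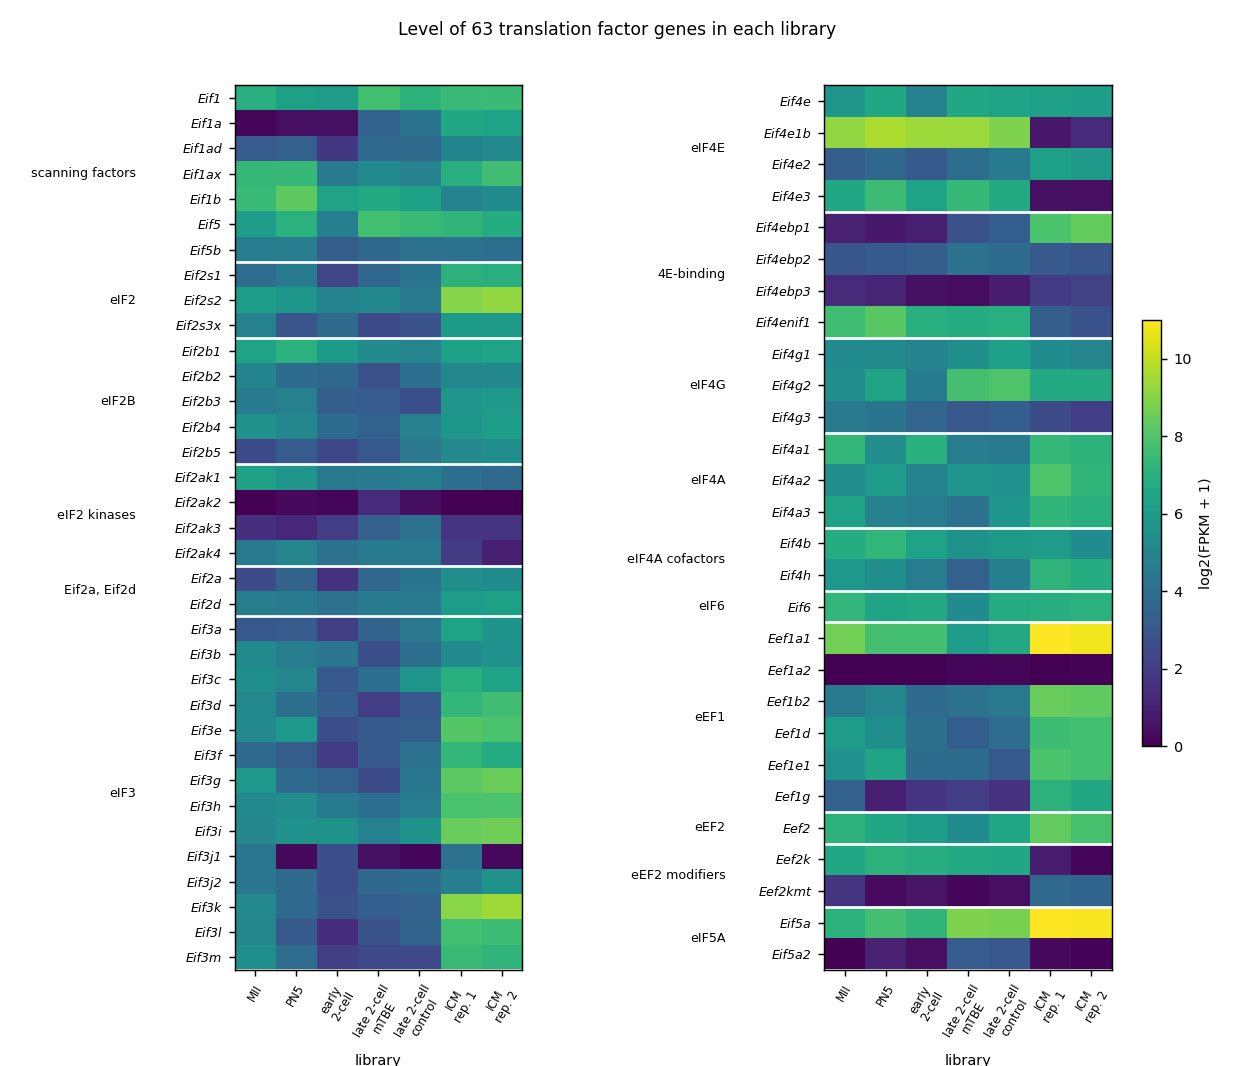
Level of each of the 63 genes (rows, grouped by complex) in each of the 7 libraries (columns) as log2(FPKM + 1), from dark (0) to bright. Eif4e1b is the brightest gene of the total RNA libraries and dark in ICM, while the rows of 13 of 14 eIF3 genes and 5 of 6 eEF1 genes are brighter in both ICM libraries than in any total RNA library.

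RefSeq start regions (assembly GRCm38.p6, 250 bases before to 50 after an annotated start) were matched by symbol for 49 of the 63 members, and 14 had no entry. They were searched on both strands for CACGTG, the E-box letters to which MYC and USF proteins bind, and on the sense strand for a C followed by at least 4 pyrimidines beginning within 10 bases of the start. The latter is a loose search for the 5′ terminal oligopyrimidine tract, known from mRNAs of ribosomal proteins and elongation factors whose translation depends on mTOR. A match need not lie at the first base of the mRNA, so it does not show that the mRNA carries such a terminal tract. Matches are called pyrimidine tracts below. CACGTG was in 12 of the 49 members (24.5%), against 12.4% of 6672 genes that reached 10 FPKM in any library and 8.09% of all 27025 genes with a start region. It was found upstream of cap-binding Eif4e, scaffold Eif4g1, helicase Eif4a1 and elongation factor Eef2, which are shown because they stand for each role, with CACGTG in capitals, on the plus strand for Eif4e (chr3:138527028-138527057), Eif4g1 (chr16:20672661-20672690) and Eef2 (chr10:81176576-81176605) and the minus strand for Eif4a1 (chr11:69672595-69672624).
Eif4e: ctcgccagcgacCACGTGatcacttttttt
Eif4g1: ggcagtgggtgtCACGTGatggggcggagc
Eif4a1: cgatcgcctccgCACGTGtaaaggtgctgg
Eef2: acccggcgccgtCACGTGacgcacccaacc

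The pyrimidine tract was in 16 of the 49 members (32.7%), against 36.8% of genes at 10 FPKM or more and 34.4% of all genes, so its share lay near the background. It is shown in capitals for the tRNA-delivering factor Eef1a1 (minus strand, chr9:78481710-78481739), for 2 eIF3 subunits whose levels are given below, Eif3f (plus strand, chr7:108934400-108934429) and Eif3l (plus strand, chr15:79075208-79075237), and for the eIF2 subunit Eif2s3x (minus strand, chrX:94212637-94212666).
Eef1a1: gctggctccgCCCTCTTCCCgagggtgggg
Eif3f: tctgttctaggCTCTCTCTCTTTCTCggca
Eif3l: gcgcggagttcttcttccgCTCTCTCCCac
Eif2s3x: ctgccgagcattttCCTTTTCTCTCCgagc

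Eif4e1b, the eIF4E form of oocytes, ranked 59 and 56 of the 63 members by FPKM in the ICM libraries, against rank 1 in each of the 5 total RNA libraries. It had 598, 793 and 667 FPKM in MII, PN5 and early 2-cell, 653 and 462 FPKM in mTBE and control late 2-cell embryos, and 0.648 and 1.53 FPKM in the ICM libraries. All 5 total RNA libraries thus lay far above both ICM libraries, and control was the lowest of the 5. General Eif4e, which most cells use, had 55.2, 95.7 and 28.4 FPKM in MII, PN5 and early 2-cell, 93.4 and 83.1 FPKM in mTBE and control, and 78.5 and 68.6 FPKM in ICM, without such a gap between stages. The ratio of Eif4e1b to Eif4e was 10.8, 8.29 and 23.5 in these first stages, 6.99 and 5.56 in mTBE and control, and 0.00826 and 0.0223 in ICM.

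The other cap-binding forms also divided between stages. Eif4e3, an atypical cap-binding form, had 93.5, 183 and 82.5 FPKM in MII, PN5 and early 2-cell, 166 and 106 FPKM in mTBE and control, and 0.405 and 0.348 FPKM in ICM. Eif4e2, a cap-binding repressor also called 4EHP, ran the other way, with 9.07, 12.3 and 7.70 FPKM in MII, PN5 and early 2-cell, 14.6 and 22.9 FPKM in mTBE and control, and 76.0 and 60.7 FPKM in ICM. Within each library Eif4e1b made up 79.1, 73.2 and 84.9% of the summed eIF4E family FPKM in MII, PN5 and early 2-cell, 70.4 and 68.6% in mTBE and control, and 0.417 and 1.16% in the ICM libraries. Such a share does not depend on how a library was scaled. In ICM the family was shared between Eif4e at 50.5 and 52.3% and Eif4e2 at 48.9 and 46.3%.

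Among the proteins that bind eIF4E, the oocyte and blastocyst libraries were dominated by different genes. Eif4enif1, the eIF4E transporter 4E-T that carries eIF4E into nuclei and mRNA granules, had 196, 288 and 119.6 FPKM in MII, PN5 and early 2-cell, 111 and 122 FPKM in mTBE and control, and 8.99 and 5.88 FPKM in ICM. Eif4ebp1, the mTOR-regulated inhibitor 4E-BP1, had 1.01, 0.676 and 0.954 FPKM in MII, PN5 and early 2-cell, 5.69 and 8.75 FPKM in mTBE and control, and 233 and 335 FPKM in ICM. Its ratio to Eif4e was 2.97 and 4.88 in ICM, against at most 0.105 in the 5 total RNA libraries. Its paralogue Eif4ebp2 stayed between 6.73 and 16.0 FPKM in all 7 libraries, and Eif4ebp3 between 0.270 and 3.38 FPKM. Of the summed Eif4ebp1, Eif4ebp2 and Eif4ebp3 levels, Eif4ebp1 made up 10.8, 7.19 and 9.75% in MII, PN5 and early 2-cell, 25.9 and 37.2% in mTBE and control, and 95.8 and 97.1% in ICM.

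**Figure D2:**
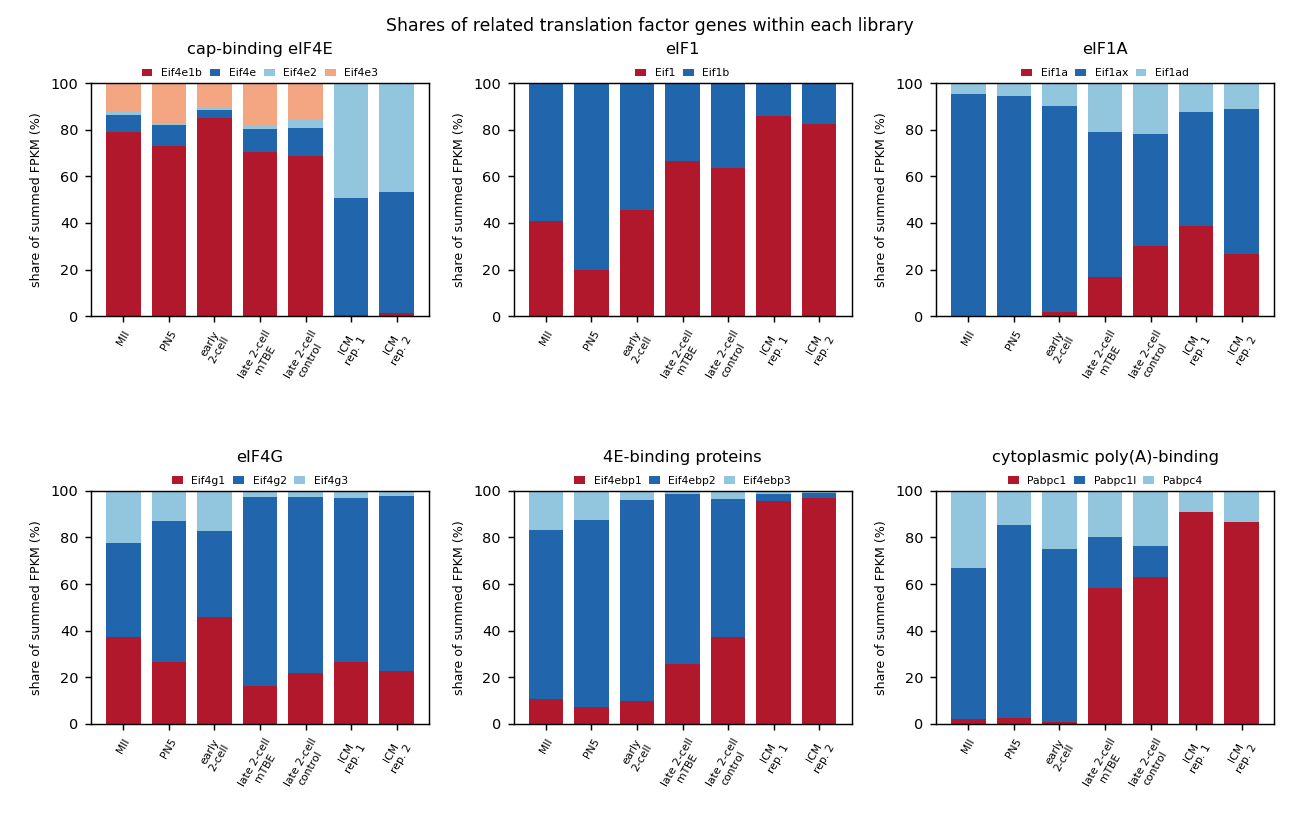
Share of the summed FPKM (%, vertical axis) held by each of a set of related genes within each library (bars), for 6 sets. Eif4e1b takes a large share up to and including the late 2-cell stage, and Pabpc1l before it. Both take under 2% in ICM, where Eif4e with Eif4e2, Eif4ebp1 and Pabpc1 hold most of their sets.

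Among the scaffold genes Eif4g2 stood out at the late 2-cell stage. Eif4g2, the eIF4G relative DAP5 that lacks the eIF4E-binding site, had 41.6, 85.0 and 23.1 FPKM in MII, PN5 and early 2-cell, 214 and 249 FPKM in mTBE and control, and 106 and 103 FPKM in ICM. It was 1.32 higher in mTBE and 1.54 higher in control than in PN5 on the log2(FPKM + 1) scale, both against the same PN5 library. Eif4g1, the general scaffold, had 38.5, 37.3 and 29.1 FPKM in MII, PN5 and early 2-cell, 43.3 and 72.5 FPKM in mTBE and control, and 39.9 and 31.3 FPKM in ICM. Eif4g2 held 40.3, 60.6 and 36.5% of the summed eIF4G FPKM in MII, PN5 and early 2-cell, 81.0 and 75.4% in mTBE and control, and 70.3 and 74.9% in ICM. Eif4g3 was the lowest eIF4G gene in all 7 libraries, at 3.13 to 23.2 FPKM.

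The helicase genes differed in where they were high. Eif4a1, the main cap-complex helicase, had 155, 42.6 and 125 FPKM in MII, PN5 and early 2-cell, 24.0 and 22.7 FPKM in mTBE and control, and 160.3 and 136 FPKM in ICM. PN5 and late 2-cell, where Eif4a1 was lowest, share a table that MII and early 2-cell are not in, so stage and table cannot be told apart. Its close relative Eif4a2 was steadier in the total RNA libraries, at 41.1, 64.9 and 29.5 FPKM in MII, PN5 and early 2-cell and 52.0 and 46.8 FPKM in mTBE and control, with 253 and 146 FPKM in ICM. Eif4a3, the helicase of the exon junction complex left by splicing, had 80.3, 28.8 and 24.6 FPKM in MII, PN5 and early 2-cell, 16.0 and 54.1 FPKM in mTBE and control, and 148 and 121 FPKM in ICM, so mTBE held its lowest level. The helicase cofactor Eif4h had 57.5, 43.5 and 23.4 FPKM in MII, PN5 and early 2-cell, 9.35 and 25.6 FPKM in mTBE and control, and 139 and 110.4 FPKM in ICM. The other cofactor, Eif4b, ranged from 39.8 FPKM in ICM replicate 2 to 149.6 FPKM in PN5.

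Among the factors that scan for the start codon, Eif1b and Eif1 changed places. Eif1b, a close relative of Eif1, had 172, 306 and 80.1 FPKM in MII, PN5 and early 2-cell, 102 and 77.7 FPKM in mTBE and control, and 29.0 and 38.2 FPKM in ICM. Eif1, which holds the ribosome open while it scans, had 119, 75.6 and 67.5 FPKM in MII, PN5 and early 2-cell, 202 and 137 FPKM in mTBE and control, and 177 and 179 FPKM in ICM. Eif1b thus held 59.1, 80.2 and 54.3% of the pair in MII, PN5 and early 2-cell, 33.5 and 36.2% in mTBE and control, and 14.1 and 17.6% in ICM. RefSeq names 3 pseudogenes of Eif1, and reads shared with them make its level uncertain.

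The eIF1A genes, whose protein partners eIF1 in scanning, differed in when they appeared. Eif1ax had 159, 165 and 22.0 FPKM in MII, PN5 and early 2-cell, 37.3 and 28.7 FPKM in mTBE and control, and 122 and 195 FPKM in ICM. Eif1a was under 0.5 FPKM in MII, PN5 and early 2-cell, with 10.1 and 17.8 FPKM in mTBE and control and 96.6 and 82.8 FPKM in ICM. The sum of Eif1a and Eif1ax was 159, 165 and 22.5 FPKM in MII, PN5 and early 2-cell. It was 47.4 and 46.5 FPKM in mTBE and control, and 219 and 277 FPKM in ICM. Reads may be shared between Eif1a, Eif1ax and the Eif1a-like genes given at the end, which makes the level of Eif1a uncertain. The members Eif5 and Eif5b, which trigger hydrolysis of the eIF2-bound GTP and join the ribosomal subunits, ranged from 26.2 FPKM in early 2-cell to 205 FPKM in mTBE for Eif5 and from 8.54 FPKM in early 2-cell to 24.0 FPKM in MII for Eif5b. Eif1ad, whose human protein acts in assembly of the small ribosomal subunit, had 2.43 FPKM in early 2-cell and up to 34.8 FPKM in ICM replicate 2.

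The 3 subunits of eIF2, which carries the initiator tRNA, were each highest in ICM. Eif2s2 (beta) was the most abundant in every library, with 68.1, 55.5 and 28.8 FPKM in MII, PN5 and early 2-cell, 33.9 and 20.9 FPKM in mTBE and control, and 506 and 595 FPKM in ICM. Eif2s1 (alpha, the subunit that the kinases phosphorylate) had 14.2, 22.9 and 3.94 FPKM in MII, PN5 and early 2-cell, 11.2 and 17.6 FPKM in mTBE and control, and 133 and 123 FPKM in ICM. Eif2s3x (gamma) had 27.1, 6.41 and 13.0 FPKM in MII, PN5 and early 2-cell, 4.52 and 6.08 FPKM in mTBE and control, and 62.8 and 59.2 FPKM in ICM, and its reads may be shared with the Y-linked copy. The highest eIF2 subunit exceeded the lowest by 10.1 times in ICM replicate 2 and by 3.44 times in control, the extremes of the 7 libraries.

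The subunits of eIF2B, the exchange factor, were uneven in the oocyte and close together in ICM. The highest exceeded the lowest by 17.9, 15.4 and 14.5 times in MII, PN5 and early 2-cell, by 6.49 and 5.64 times in mTBE and control, and by 2.45 and 2.41 times in ICM. Eif2b1 (alpha) was the highest subunit in each library, with 81.9, 128 and 62.3 FPKM in MII, PN5 and early 2-cell, 36.4 and 31.2 FPKM in mTBE and control, and 78.5 and 83.1 FPKM in ICM. Eif2b5 (epsilon, the catalytic subunit) was the lowest in MII, PN5 and early 2-cell at 4.56, 8.28 and 4.30 FPKM, and had 7.18 and 19.5 FPKM in mTBE and control and 35.0 and 40.6 FPKM in ICM.

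The eIF2 kinases, each of which answers another stress, differed in their stage. Eif2ak1 (HRI, a sensor of haem shortage) had 77.2, 52.7 and 21.1 FPKM in MII, PN5 and early 2-cell, 21.7 and 24.9 FPKM in mTBE and control, and 15.6 and 13.0 FPKM in ICM. Eif2ak3 (PERK, a sensor of unfolded proteins in the endoplasmic reticulum) peaked at the late 2-cell stage, with 9.21 and 16.7 FPKM in mTBE and control, and was between 1.38 and 2.94 FPKM in the other 5 libraries. Eif2ak4 (GCN2, a sensor of amino acid shortage) was at 2.87 and 0.950 FPKM in ICM, against 16.4 to 30.8 FPKM in the total RNA libraries. Eif2ak2 (PKR, a sensor of double-stranded RNA) exceeded 1 FPKM only in mTBE, at 1.45 FPKM, and was listed at 0 in both ICM libraries. Of the factors that bring initiator tRNA without eIF2, Eif2d stayed between 16.4 and 75.5 FPKM and Eif2a between 2.05 and 42.6 FPKM, both lowest in early 2-cell.

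eIF3, the large scaffold that joins the small ribosomal subunit to eIF4G, had its lowest median levels in early 2-cell and late 2-cell mTBE embryos. Leaving aside Eif3j1 and Eif3j2, the median of its 12 subunits was 35.0, 15.1 and 6.49 FPKM in MII, PN5 and early 2-cell, 7.61 and 15.8 FPKM in mTBE and control, and 188 and 191 FPKM in ICM. Eif3c, a core subunit that contacts eIF1, had 43.8, 31.5 and 7.30 FPKM in MII, PN5 and early 2-cell, 15.3 and 52.1 FPKM in mTBE and control, and 122 and 81.5 FPKM in ICM. Eif3g, an RNA-binding subunit, had 57.9, 13.2 and 9.73 FPKM in MII, PN5 and early 2-cell, 4.74 and 18.7 FPKM in mTBE and control, and 302 and 369 FPKM in ICM. Both were lower in mTBE than in control, where Eif3c had its highest level before ICM. Eif3i was by contrast the highest subunit in early 2-cell and mTBE, with 32.9, 49.2 and 47.2 FPKM in MII, PN5 and early 2-cell, 27.8 and 47.2 FPKM in mTBE and control, and 353 and 388 FPKM in ICM.

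Other subunits of eIF3 varied widely over the stages. Eif3l, whose tract is printed above, had 31.5, 7.64 and 1.72 FPKM in MII, PN5 and early 2-cell, 6.06 and 10.4 FPKM in mTBE and control, and 201 and 187 FPKM in ICM. Its partner Eif3k had 34.9, 12.7 and 5.68 FPKM in MII, PN5 and early 2-cell, 8.78 and 9.98 FPKM in mTBE and control, and 524 and 689 FPKM in ICM, the highest eIF3 level there. Eif3e had 35.1, 56.8 and 5.26 FPKM in MII, PN5 and early 2-cell, 7.70 and 8.52 FPKM in mTBE and control, and 271 and 230.2 FPKM in ICM, with 4 pseudogenes named in RefSeq. Eif3f, whose tract is also printed, had 7.52 and 16.4 FPKM in mTBE and control, and Eif3m, its neighbour in the complex, had 4.44 and 4.45 FPKM there.

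Eif3j1 and Eif3j2 are near-identical copies, and the tables divided reads between them in different ways. Their values were equal within 1% in MII and early 2-cell, while Eif3j1 was below 0.5 FPKM in PN5, mTBE and control, and 16.9 and 0.172 FPKM in the ICM libraries. The sum of both was 37.9, 13.2 and 10.4 FPKM in MII, PN5 and early 2-cell, 12.3 and 14.1 FPKM in mTBE and control, and 43.1 and 47.7 FPKM in ICM, and the ICM libraries were close on this sum.

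**Figure D3:**
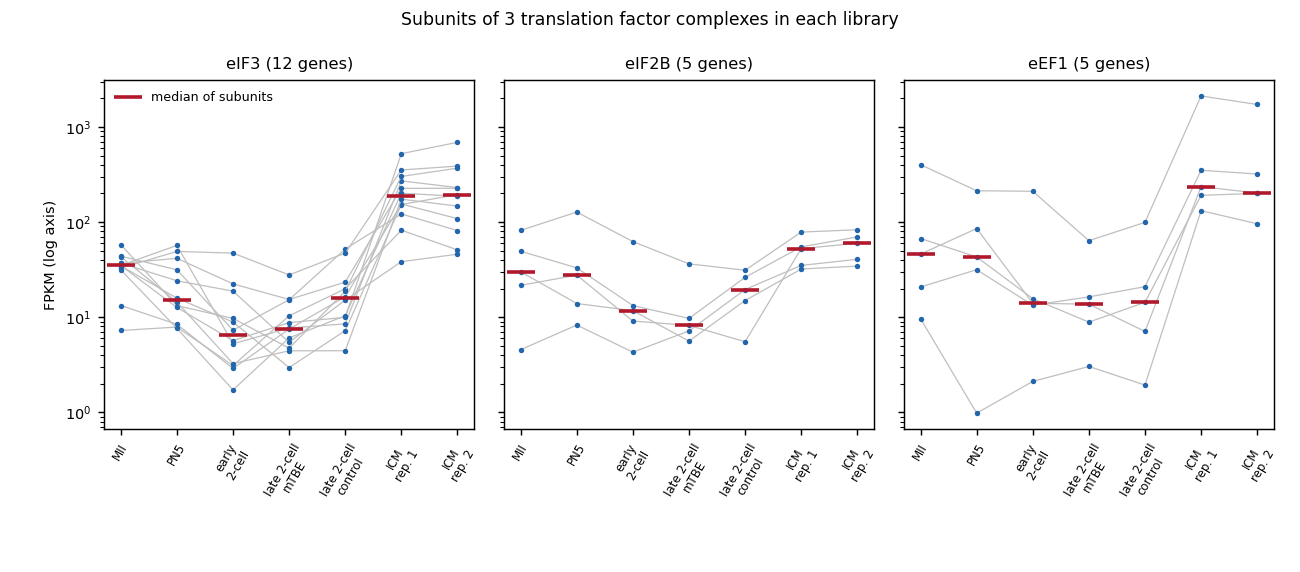
Level in FPKM (vertical log axis) of each subunit gene of eIF3 (12 genes, Eif3j1 and Eif3j2 left out), eIF2B and eEF1 (Eef1a2 left out) in each library. Points are genes, grey lines join the points of a gene, and red bars are medians, which for eIF3 are 7.61 FPKM in mTBE and 15.8 FPKM in control, against 188 and 191 FPKM in ICM.

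Eif6, which keeps the large ribosomal subunit from joining too early, had 151, 84.7 and 97.6 FPKM in MII, PN5 and early 2-cell, 38.4 and 109 FPKM in mTBE and control, and 114 and 130.4 FPKM in ICM. Its mTBE level was the lowest of the 7.

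The eEF1 genes other than Eef1a2 were more abundant in ICM than in any earlier library. Eef1a1, which delivers aminoacyl-tRNA to the ribosome, had 401, 213 and 211 FPKM in MII, PN5 and early 2-cell, 63.8 and 99.3 FPKM in mTBE and control, and 2117 and 1721 FPKM in ICM, with 2 pseudogenes named in RefSeq. The muscle and neuron form Eef1a2 was at most 0.124 FPKM in any library. The exchange factor subunits Eef1b2, Eef1d and Eef1g had 350, 191 and 132 FPKM in ICM replicate 1 and 21.0, 14.3 and 1.94 FPKM in control. Eef1e1, a protein of the multisynthetase complex named for its likeness to eEF1, had 46.1, 85.5 and 14.0 FPKM in MII, PN5 and early 2-cell, 13.7 and 7.08 FPKM in mTBE and control, and 235 and 202 FPKM in ICM. Its late 2-cell levels lay below those of MII and PN5.

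Eef2, the translocase, and Eef2k, the kinase that inhibits it, moved apart between the 2-cell stage and ICM. Eef2k had 96.1, 131 and 116 FPKM in MII, PN5 and early 2-cell, 103 and 91.6 FPKM in mTBE and control, and 0.831 and 0.102 FPKM in ICM. Eef2 had 135, 92.9 and 68.3 FPKM in MII, PN5 and early 2-cell, 39.9 and 91.4 FPKM in mTBE and control, and 332 and 222 FPKM in ICM, with 1 pseudogene named in RefSeq. The ratio of Eef2k to Eef2 was 0.713, 1.41 and 1.69 in MII, PN5 and early 2-cell, 2.58 and 1.00 in mTBE and control, and below 0.003 in both ICM libraries. Eef2kmt, whose human protein methylates eEF2, was at 12.8 and 10.7 FPKM in ICM, against at most 2.20 FPKM in the total RNA libraries.

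Eif5a, the hypusine-bearing factor that helps ribosomes through stalling motifs, had 132, 206 and 147 FPKM in MII, PN5 and early 2-cell, 472 and 443 FPKM in mTBE and control, and 1998 and 1906 FPKM in ICM. Its paralogue Eif5a2 had 8.22 and 6.81 FPKM in mTBE and control, and at most 1.02 FPKM in each of the other 5 libraries. Eif5a held at least 98.3% of the pair in all 7 libraries.

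Embryos released from the block were compared with control embryos at the late 2-cell stage. Genes that reached 1 FPKM in either library were compared on the log2(FPKM + 1) scale, and a difference of at least 1 in size, about 2-fold, was called higher or lower. By this rule 5 of 13 eIF3 genes, 3 of 5 eIF2B genes and 0 of 7 scanning factors were lower in mTBE, and Eif4e1b was not lower. Of 59 measured members 12 were lower in mTBE, where 9.99% of all 13726 measured genes were lower, and 0 were higher, where 5.57% of all genes were. The members' median difference was -0.30, beside -0.05 over all genes. Among genes at 5 FPKM or more, 12 of 56 members were lower and 12.6% of all 8605 genes.

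The lower members in mTBE included 5 of 13 measured eIF3 genes, and the median over these 13 was -0.74. The largest differences were in Eif3g (-1.78), Eif3c (-1.71), Eif4a3 (-1.70), Eif6 (-1.48) and Eif4h (-1.36). All 13 eIF3 genes lay below 0. Median scaling brings to 0 the median change among genes that reach 5 FPKM, not the median over all genes. With this scaling 12 of 13 eIF3 genes lay below 0 and 3 were lower, where 8.39% of all genes were. Of the 5 eIF2B genes Eif2b2, Eif2b4 and Eif2b5 were lower, at -1.27, -1.35 and -1.33, and Eif2b1 and Eif2b3 lay above 0, at 0.22 and 0.50. Eef2 was lower by the same rule, at -1.18. Among members at 10 FPKM or more the highest differences in mTBE were those of Eef1e1 (0.86), Eif2s2 (0.67), Eif4e3 (0.65), Eif1 (0.56) and Eif4e1b (0.50), each short of 2-fold.

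For a measure of spread within a group, ICM replicate 2 was set against ICM replicate 1. Of 58 measured members 1 was lower, Eif3j1, where 2.79% of all genes were lower, and 0 were higher, where 2.31% were. Apart from Eif3j1 the largest difference was that of Eif2ak4, at -0.99. The spread between late 2-cell libraries was not measured, and the ICM libraries were made by another protocol. Markers of cumulus and granulosa cells, which surround the oocyte, summed to 17.3 FPKM in mTBE and 22.3 FPKM in control, with Amhr2 at 2.12 and 16.7 FPKM. Foxl2, Cyp19a1 and Amh went the other way, with 7.20, 5.13 and 1.10 FPKM in mTBE and 1.04, 2.85 and 0.254 FPKM in control. Amhr2 also had 6.64 and 9.13 FPKM in the ICM libraries. Genes typical of the 2-cell stage summed to 103 FPKM in mTBE and 164 FPKM in control, with Zfp352 the largest at 70.3 and 95.7 FPKM. Of these genes only Dux went the other way, at 1.68 FPKM in mTBE and 0.991 FPKM in control. The part of either marker list in the members' differences was not tested.

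**Figure D4:**
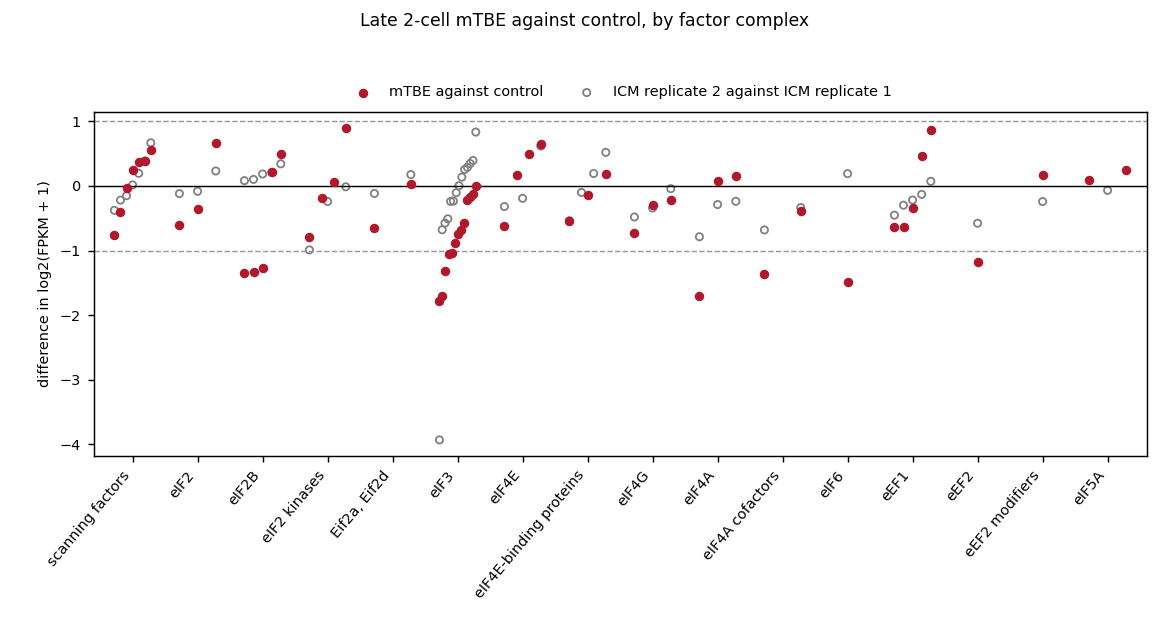
Difference in log2(FPKM + 1) of each measured member (filled points, mTBE against control) by complex, with the difference between the ICM libraries as open circles and dashed lines at 1 and -1. The 12 members below -1 include 5 of eIF3 and 3 of eIF2B, and the open circle near -4 is Eif3j1.

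The mTBE and control late 2-cell embryos were each set against the PN5 library, which both comparisons share, so they are given side by side. In mTBE 9 of 60 measured members were higher than in PN5, where 29.4% of all genes were, and 22 were lower, where 17.7% of all genes were. The median over members was -0.74 beside 0.27 over all genes. In control 8 of 59 members were higher, where 30.5% of all genes were, and 14 were lower, where 17% of all genes were. With median scaling the counts in control were 11 and 11, where 32.8% of all genes were higher and 14.8% lower. The median this scaling removed, among genes that reach 5 FPKM, was -0.13, so the members moved up. The median over members in control was -0.25 beside 0.28 over all genes.

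Among members at 10 FPKM or more, those higher in control than in PN5 were led by Eif1a (3.79, uncertain as above), Eif2ak3 (2.90), Eif4g2 (1.54), Eif3a (1.23) and Eif2b5 (1.15). The lower ones were led by Eef1e1 (-3.42), Eif3e (-2.60), Eif1ax (-2.48), Eif2b3 (-2.14) and Eif2b1 (-2.00). Of 13 measured eIF3 genes 6 were lower in mTBE than in PN5, and 3 were lower and 1 higher in control. Of 5 eIF2B genes 4 were lower in mTBE, and 2 were lower and 1 higher in control. Eif1a was at 3.03 in mTBE and 3.79 in control, each against PN5. Eif5a was at 1.20 in mTBE and 1.10 in control.

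The stages before the late 2-cell embryo were set against MII, from tables normalized separately. In PN5 1 of 60 members was higher, Eif4g2 at 1.01, where 8.77% of all genes were higher. Lower in PN5 were 12 members, where 9.23% of all genes were, and the median over members was -0.05 beside 0.24 over all genes. With median scaling the counts were 0 higher and 14 lower, where 3.35% of all genes were higher and 12.6% lower. The share of all called genes that were higher moved to 21.1% from 48.7%. Among members at 10 FPKM or more the lowest in PN5 were Eif3j1 (-4.08, uncertain as above), Eif3g (-2.05), Eif2s3x (-1.92), Eif3l (-1.91) and Eif4a1 (-1.84). The eIF4E genes lay above 0 in 4 of 4 cases, with a median of 0.59.

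In early 2-cell embryos 30 of 59 measured members were lower than in MII, where 28.8% of all genes were lower, and 0 were higher, where 4.02% of all genes were. The median over members was -1.0 beside -0.58 over all genes. This count depends on the scaling. With median scaling, 18 of 59 members were lower and 1 higher, where 14.0% and 7.96% of all genes were. With each library rescaled to the same sum, 22 of 61 were lower and 2 higher, where 18.3% and 14.7% of all genes were. The share of all called genes that were higher was 36.2% and 44.5% under these scalings, against 12.2% as deposited. eIF3 was low under each scaling, with 11 of 14 genes lower and a median of -1.86 as deposited, and 10 of 14 lower under either alternative. The near-identical copies Eif3j1 and Eif3j2 were both among the 11, each at -1.68. With these copies summed, 29 of 58 members were lower as deposited. The eIF3 subunit Eif3i was the 1 member called higher with median scaling, at 1.06. As deposited the lowest eIF3 genes were Eif3l (-3.58), Eif3m (-3.37) and Eif3e (-2.53), and Eif1ax was at -2.79. The eIF4E genes had 0 of 4 lower, with Eif4e1b at 0.16 and Eif4e at -0.93.

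ICM was compared with control late 2-cell embryos as the mean of log2(FPKM + 1) over its 2 libraries. Of 61 measured members 40 were higher in ICM, where 25% of all genes were higher, and 10 were lower, where 47.8% of all genes were. The median over members was 1.53 beside -0.88 over all genes. With median scaling, 36 members were higher and 13 lower, where 22.5% and 51.1% of all genes were. The median removed here, among genes that reach 5 FPKM, was 0.26, so the members moved down. With rescaled sums 33 were higher and 13 lower, where 20.7% and 56.2% of all genes were. Among the sets as deposited, 13 of 14 eIF3 genes (median 3.08), 5 of 5 eEF1 genes (4.25), 3 of 3 eIF2 genes (3.13) and 3 of 3 eIF4A genes (2.01) were higher. The 13 included Eif3j1, uncertain as above, with 16.9 and 0.172 FPKM in the ICM libraries. With Eif3j1 and Eif3j2 summed, 39 of 60 members were higher. With rescaled sums 12 of 14 eIF3 genes and 2 of 3 eIF4A genes were higher, and the eEF1 and eIF2 counts stayed the same. eIF2B had 4 of 5 genes higher as deposited, 2 of 5 with median scaling and 1 of 5 with rescaled sums.

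The members higher in ICM were led by Eif3k (5.77), Eef1g (5.27), Eif3m (4.89), Eif4ebp1 (4.85) and Eef1e1 (4.76). The lower ones were led by Eif4e1b (-7.82), Eif4e3 (-6.28), Eef2k (-6.03), Eif4enif1 (-3.89) and Eif2ak4 (-2.98). Eif4e and Eif1 differed by less than 2-fold, at -0.18 and 0.37, with means of 73.5 ± 6.98 and 178 ± 1.35 FPKM in ICM (SD, n = 2) and 83.1 and 137 FPKM in control. Stage, culture and library protocol differ together between these groups, so they cannot be told apart. All 8 trophectoderm markers were at 1 FPKM or more in both ICM libraries, with sums of 1808 and 1531 FPKM, against 7 of 8 markers and 41.8 FPKM in control. Their part in the members' higher levels was not tested.

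**Figure D5:**
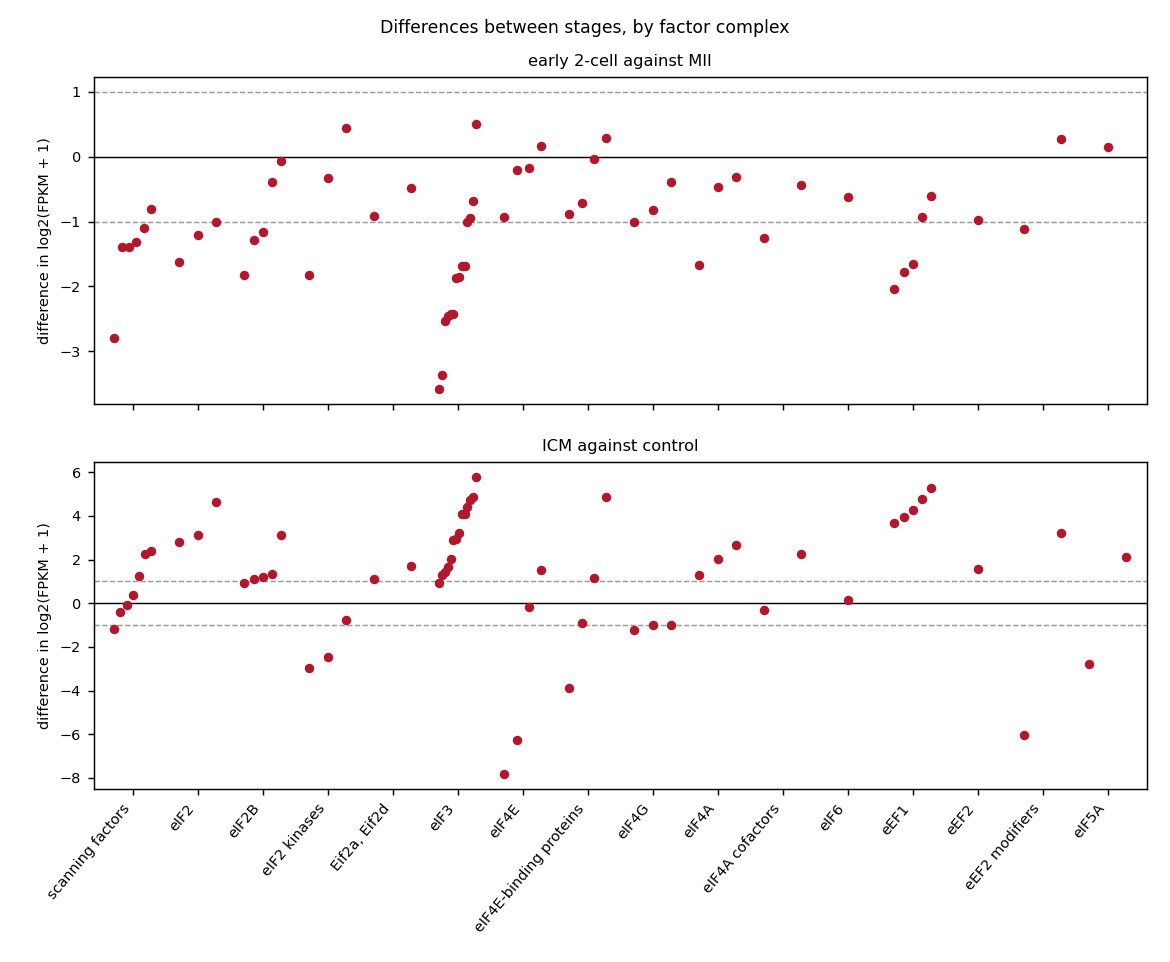
Difference in log2(FPKM + 1) of each measured member by complex, for early 2-cell against MII (top) and ICM against control (bottom), with dashed lines at 1 and -1. In the top plot eIF3 reaches -3.58 (Eif3l), and in the bottom plot eIF3 and eEF1 lie above 0 while Eif4e1b lies at -7.82.

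Besides the members, 8 lists were read, 7 of them of genes that act with or beside these factors. The cytoplasmic poly(A)-binding proteins, which join eIF4G to the mRNA tail, switched form at the late 2-cell stage. Pabpc1l, the oocyte form, had 113, 79.0 and 119 FPKM in MII, PN5 and early 2-cell, 17.3 and 17.1 FPKM in mTBE and control, and 0.0492 and 0.156 FPKM in ICM. General Pabpc1 had 3.29, 2.23 and 0.989 FPKM in MII, PN5 and early 2-cell, 45.7 and 81.8 FPKM in mTBE and control, and 122 and 90.7 FPKM in ICM. Pabpc1l and Eif4e1b, both oocyte forms, therefore differed at the late 2-cell stage, where Pabpc1l was at -2.14 and Eif4e1b at -0.78 in control against PN5. Of 8 measured genes of the poly(A)-binding list 0 were called in mTBE against control, where 9.99% of all genes were lower and 5.57% higher. In ICM against control 6 were lower and 1 higher, where 47.8% of all genes were lower and 25% higher.

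Repressors and maskers of oocyte mRNA were the list with the lowest median in ICM apart from a set of 2-cell genes. Of 17 measured genes 13 were lower in ICM than in control and 0 higher, with a median of -3.14, where 47.8% of all genes were lower and 25% higher with a median of -0.88. In mTBE against control 1 of 17 was lower, beside 9.99% of all genes. Ybx3, Zar1 and Lsm14b, its most abundant genes, were at -1.28, -6.34 and -7.07 in ICM against control. Lsm14b, an RNA granule protein, had 127 and 281 FPKM in mTBE and control, a difference of -1.14.

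Genes of the mTOR pathway and the kinases and repressors of initiation had 4 of 15 lower and 0 higher in mTBE against control, with a median of -0.35, where 9.99% of all genes were lower and 5.57% higher. The most abundant of them, Rheb, Akt1s1 and Deptor, were at -0.16, 0.20 and 0.34. Larp1, named after its value was seen and known to bind 5′ terminal oligopyrimidine tracts, had 4.88 and 21.5 FPKM in mTBE and control and 2.59 FPKM in PN5. Members with the tract had a median of -0.62 over 16 genes in mTBE against control, and those without it 0.01 over 30 genes. Over all genes with a start region the medians were -0.03 with the tract and -0.05 without it. Against PN5 the members' order was the other way, with -0.36 with the tract and -0.86 without it in mTBE, and 0.02 and -0.36 in control. Members with and without CACGTG had medians of -0.05 and -0.35 in mTBE against control, beside -0.11 and -0.04 over all genes.

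The integrated stress response, the programme that follows phosphorylation of eIF2, had 3 of 12 genes lower in mTBE than in control, where 9.99% of all genes were. Against PN5, 7 of 12 were higher and 3 lower in mTBE, and 7 of 12 higher and 2 lower in control, beside 29.4 and 17.7% of all genes in mTBE and 30.5 and 17% in control. Its central factor Atf4 had 89.5, 150.2 and 72.8 FPKM in MII, PN5 and early 2-cell, 132 and 155 FPKM in mTBE and control, and 139 and 170.3 FPKM in ICM, with -0.24 for mTBE against control. Ppp1r15a, which brings a phosphatase to eIF2, had 29.3 and 64.8 FPKM in mTBE and control and 17.3 FPKM in PN5. Asns, an amino acid synthetase, was at 102 and 79.3 FPKM in ICM, against at most 2.81 FPKM in the total RNA libraries.

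Termination and recycling factors had 0 of 9 genes called in mTBE against control, and 5 of 10 higher and 1 lower in ICM against control. Etf1, the release factor that reads stop codons, had 115 and 111 FPKM in mTBE and control, and Gspt2, a form of its partner, had 10.7 and 6.66 FPKM in mTBE and control and 102 FPKM in PN5. Such calls were made for 9.99% of all genes lower in mTBE against control, and for 25% higher and 47.8% lower in ICM against control. Mitochondrial translation factors had 1 of 10 lower in mTBE against control, and 7 of 10 higher in ICM against control, with a median of 1.10. Enzymes that make diphthamide on eEF2 or hypusine on eIF5A had 2 of 7 lower in mTBE against control, and 5 of 9 higher and 1 lower in ICM against control. Dohh, which completes hypusine, had 8.01 and 16.0 FPKM in mTBE and control and 51.2 and 38.4 FPKM in ICM.

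The last list held 7 genes of the 2-cell stage that carry clone or serial names and were listed as relatives of Eif1a, of which the tables held 6, and their function is not annotated in the tables used. Of 5 measured genes 5 were higher in control than in PN5, where 30.5% of all genes were, with a median of 4.38 beside 0.28. They were listed as genes of the 2-cell stage, so this was built into the choice. In mTBE 3 of 5 were lower than in control, where 9.99% of all genes were, with a median of -1.11 beside -0.05. Gm5662, the most abundant, had 2.68 FPKM in early 2-cell, 22.8 and 45.8 FPKM in mTBE and control, and 0.813 and 2.60 FPKM in ICM.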

How the data were processed

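The authors deposited FPKM per gene symbol for 7 RNA libraries, in 4 tables. The chromatin samples, 109 in number, were not analysed here. Named in the submitters' processing notes are Cufflinks 2.1.1, TopHat2 2.1.1 and CASAVA 1.8 and the mouse build mm9, with no statement of which made what. Use of strand and of reads that map to several places is not given in the sources used here, so near-identical, overlapping and antisense genes are uncertain. Value columns that match no sample numbered 0. A chromatin sample has the same name as the MII value column, which was taken as MII RNA because GEO lists that table with the MII RNA sample.

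Repeated rows were summed, and 24028 symbols in all tables were used. Differences were taken on the log2(FPKM + 1) scale, for genes that reached 1 FPKM in either library (the ICM mean for ICM). The pseudocount of 1 FPKM makes folds of low genes look smaller than they are. A difference of at least 1 in size was called higher or lower. With 1 library a group, no test was made. Read depth is unknown: between the late 2-cell libraries at most 3 of 580 low genes lay at the same ratio, so no reads could be recovered and no counting interval is given.

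Named genes were any member, shown by library for related sets, the most abundant of each complex, and up to 5 differences in each direction among members at 10 FPKM or more, and of each other list up to 3 with the highest mean. The members and lists were chosen with earlier results of these data known. The calculation was tested on simulated data. Motifs were counted in the RefSeq table of GRCm38.p6. A planned comparison of proteins was not made. Alternatives were a pseudocount of 0.1 FPKM, a filter of 5 FPKM or none, 2 other scalings, each ICM library left out, and, chosen after seeing the data, Eif3j1 and Eif3j2 summed. Python 3.11.15, pandas 2.3.3 and numpy 2.4.6 were used.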

Additional observations from a re-analysis of the deposited data

How the results depend on the processing

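Of 159 member differences counted as higher or lower, 0 changed sign under the alternatives run. All were at least 1 in size, so a change of sign was unlikely from the start and its absence says little. Of the values under the alternatives, 183 moved by at least 0.263, a spread taken from the ICM pair, and 393 moved by less. In mTBE against control 1 member was higher at a pseudocount of 0.1 FPKM and 1 with libraries rescaled to the same sum, against 0 as reported, and 10 to 12 members were lower under all alternatives. In PN5 against MII 3 members were higher at a pseudocount of 0.1 FPKM and 0 with median scaling. In early 2-cell against MII median scaling gave 1 higher and 18 lower, and rescaling gave 2 higher and 22 lower, against 0 and 30 as reported. Between the ICM libraries 1 was higher and 2 lower at a pseudocount of 0.1 FPKM, 3 were lower when rescaled, and 0 were lower with Eif3j1 and Eif3j2 summed. Leaving out either ICM library left 40 members higher than in control and 9 to 11 lower. As a share of Eif4e1b and Eif4e alone, Eif4e1b made up 91.6% in MII, 89.2% in PN5, 95.9% in early 2-cell, 87.5% in mTBE, 84.8% in control and 2.18% in ICM replicate 2. Over all genes called in mTBE against control 35.8% were higher, against 18.4% with a filter of 5 FPKM and 46.9% when rescaled. No paired analysis was possible because each group but ICM held 1 library. Depth could not be weighed, since the tables hold no counts.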
